A study of Homo sapiens with 6 samples.

Results

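The 38 genes described here encode enzymes that break down amino acids, together with the enzymes of the methionine cycle. They were chosen by name for their place in these pathways, with earlier results of these data known. All 38 were found among the 58735 genes measured in the human liver cancer cell line Hep-G2. RNA was sequenced from 3 libraries of cells with a negative control short hairpin RNA (sh-NC; genotype WT, treatment shcontrol) and from 3 libraries of cells with a hairpin against CLGN (sh-CLGN; genotype CLGN knock down, treatment shCLGN). The CLGN product, calmegin, is a chaperone that helps proteins fold in the endoplasmic reticulum. All 6 libraries carry the tissue label HCC, the cell type label hepatocytes and the same batch label, 0DAY. Per the study's methods the hairpins were delivered by lentivirus and the cells were selected with puromycin. Each group rests on 1 hairpin, and the sources do not say that the 3 libraries of a group came from separate cultures, so p-values measure the spread between these libraries, which may be technical.

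The liver is the main site of the breakdown of most amino acids, and many of these enzymes mark the differentiated hepatocyte. For many amino acids the nitrogen is first moved to an acceptor by an aminotransferase, and the carbon skeleton then enters the citric acid cycle, ketone bodies or glucose. Methionine follows a path of its own. It is activated to S-adenosylmethionine, the methyl donor of the cell, and the S-adenosylhomocysteine left after methyl transfer is split to homocysteine, which is either methylated back to methionine or passed through transsulfuration to cysteine.

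Expression levels are in FPKM, that is, per length of the gene and per size of the library. The values gave back whole reads, which summed to 14955816 to 16244639 per library. A gene was tested with limma on log2(FPKM + 1) where it reached 1 FPKM in at least 3 libraries, and genes at low levels show less than their true fold change on this scale. CLGN was examined first, since it checks the labels. Its level was 24.1, 21.0 and 26.1 FPKM in sh-NC and 9.48, 8.88 and 8.60 FPKM in sh-CLGN (here and throughout in the order of replicates 1, 2 and 3). The groups did not overlap, with a log2 fold change of -1.31 (SE 0.081, limma adjusted p = 8.35e-06). The hepatocyte markers (12 of 12 tested, ALB and AFP among them) summed to 7238 to 7452 FPKM in sh-NC and to 7262 to 7723 FPKM in sh-CLGN, which fits the label.

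Of the 38 genes, 31 passed the expression filter and 20 of these (64.5%) had an adjusted p of at most 0.05, against 65.8% of all 13074 genes tested. In sh-CLGN 7 were higher (22.6%, against 26.7% of all genes tested) and 13 lower (41.9%, against 39.0%). These shares lie near those of all genes, so the number of calls is not a result about amino acid breakdown. The libraries of the groups did not overlap in 22 of the 31 (71.0%, against 70.2%). The median log2 fold change was -0.14, and it was -0.08 over all genes tested. Of the 31, 0 had both an adjusted p of at most 0.05 and a log2 fold change of at least 1 in size. Both thresholds were passed by 6.28% of all genes tested. On this scale 0 of the 31 reached that size at any p. With voom on the recovered reads of the same genes both thresholds were passed by 2, HPD and TDO2. The share of all genes past both under voom was not computed. The split of directions depended on the scaling, for these genes as for all genes. With read totals as the library size 10 of the 31 were higher (against 37.9% of all genes tested) and 8 lower (against 26.2%). Quantile normalization gave 10 higher (against 30.2%) and 11 lower (against 32.5%).

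The genes that failed the filter were KMO, KYNU, BCKDHA, GNMT, SDS, AMT and PRODH. KMO, KYNU, SDS and AMT had enough reads for a fit on reads, made for genes with at least 10 reads in at least 3 libraries and chosen after the data were seen. By that fit 35 of the 38 genes could be tested and 23 were called, 9 higher and 14 lower. The share called over all 16164 genes of that fit was 65.4%, and its shares higher and lower were not computed. TDO2 reached 1 FPKM only in sh-CLGN, so it entered the test through the group in which it was high. AMT likewise reached 10 reads only in sh-CLGN and is among the 9.

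**Figure D1:**
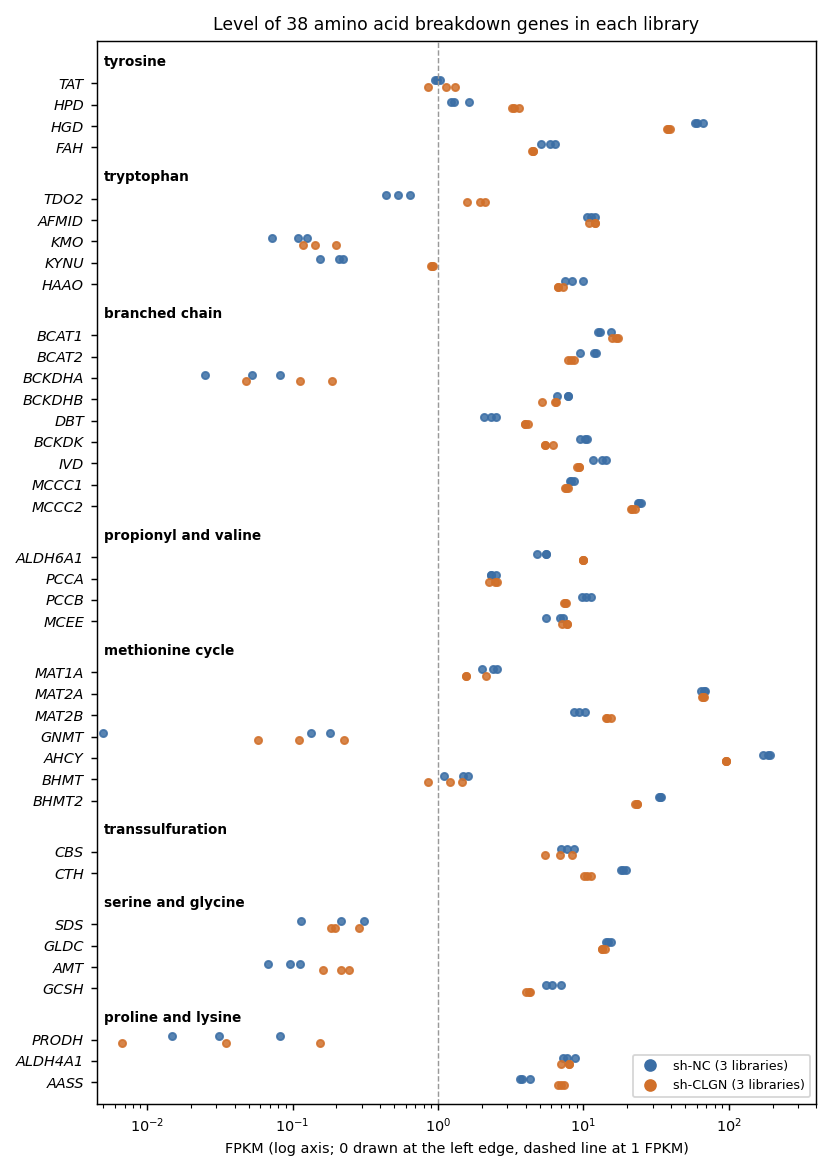
Level of each of the 38 genes in each library, grouped by role, in FPKM on a log axis with a dashed line at 1 FPKM. Points are single libraries, blue for sh-NC and orange for sh-CLGN; AHCY is the highest at 182 FPKM on average in sh-NC, and the 7 genes that failed the filter lie left of the line.

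Sequences are shown for KYNU and TDO2, with the highest ratios of mean levels, and for AHCY and CTH, with the most negative log2 fold changes in the main test, so that the letters in front of genes that moved apart in opposite directions can be read side by side. They are RefSeq promoters on GRCh38.p14, 250 bases before to 50 bases after the annotated start of the gene. Of the 38 genes, 34 had such an entry. Letters searched on both strands were TATAAA (the TATA box), CCAAT (the CCAAT box) and GGGCGG (a GC box), and matches are in capitals. KYNU (chr2:142877414-142877713, plus strand) and TDO2 (chr4:155903446-155903745, plus strand) were higher in sh-CLGN, AHCY (chr20:34311753-34312052, minus strand) and CTH (chr1:70411018-70411317, plus strand) lower.
KYNU: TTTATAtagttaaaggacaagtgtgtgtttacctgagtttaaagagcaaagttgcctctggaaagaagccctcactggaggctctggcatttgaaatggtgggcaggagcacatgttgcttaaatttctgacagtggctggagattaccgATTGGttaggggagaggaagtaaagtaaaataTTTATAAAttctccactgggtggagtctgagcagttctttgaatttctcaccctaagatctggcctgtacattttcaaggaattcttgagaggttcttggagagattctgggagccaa
TDO2: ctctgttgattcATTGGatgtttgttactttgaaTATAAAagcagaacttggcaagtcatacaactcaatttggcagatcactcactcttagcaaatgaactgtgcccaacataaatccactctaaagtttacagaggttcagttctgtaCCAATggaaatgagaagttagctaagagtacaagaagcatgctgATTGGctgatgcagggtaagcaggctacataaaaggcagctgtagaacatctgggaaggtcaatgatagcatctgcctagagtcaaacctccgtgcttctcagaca
AHCY: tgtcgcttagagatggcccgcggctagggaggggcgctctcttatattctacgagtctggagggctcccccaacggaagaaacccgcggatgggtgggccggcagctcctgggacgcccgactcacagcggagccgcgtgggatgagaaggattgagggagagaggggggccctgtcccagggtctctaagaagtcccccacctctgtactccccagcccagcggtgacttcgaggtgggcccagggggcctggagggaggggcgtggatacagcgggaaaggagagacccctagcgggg
CTH: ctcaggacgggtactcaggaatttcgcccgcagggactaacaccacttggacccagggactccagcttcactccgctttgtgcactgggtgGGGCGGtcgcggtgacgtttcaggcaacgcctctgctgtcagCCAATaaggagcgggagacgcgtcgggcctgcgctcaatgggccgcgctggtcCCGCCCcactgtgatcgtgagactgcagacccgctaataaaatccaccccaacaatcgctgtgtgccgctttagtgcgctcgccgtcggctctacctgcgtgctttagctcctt

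The KYNU window held TATAAA 66 bases before the start on the strand of the gene, overlapping a match on the opposite strand that begins 68 bases before it. TDO2 held TATAAA 216 bases before the start and CCAAT 100 bases before it. CTH held CCAAT at 117 bases and GGGCGG at 159 bases before the start, and the AHCY window held none of these letters. Further matches on the opposite strand are also in capitals. For KYNU these were CCAAT at 100 bases and TATAAA at 250 bases before the start. For TDO2 they were CCAAT at 56 and 238 bases, and for CTH GGGCGG at 64 bases before the start. TATAAA occurred in 6 of the 34 windows (AFMID, BHMT, KMO, KYNU, MAT2A and TDO2) and in 11.5% of 35116 RefSeq promoters. CCAAT occurred in 20 of the 34 and in 34.6% of all promoters. GGGCGG occurred in 22 of the 34 and in 45.0% of all promoters. Of the 6 genes with TATAAA, AFMID, BHMT and MAT2A did not pass the test, and KMO and KYNU were too low for it. The RefSeq start of TDO2 lies inside the longer gene annotated in GENCODE. A match is a description of letters and not a site of binding.

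Tyrosine is broken down in a chain of steps that runs from its aminotransferase to fumarate and acetoacetate. Of 4 genes tested, HPD was higher, HGD and FAH were lower and TAT did not pass. HPD, which turns 4-hydroxyphenylpyruvate into homogentisate, had a level of 1.23, 1.63 and 1.28 FPKM in sh-NC and 3.63, 3.35 and 3.20 FPKM in sh-CLGN. All 3 sh-CLGN libraries lay above all sh-NC libraries, at a ratio of mean levels of 2.46, and the log2 fold change was 0.89 (SE 0.090, limma adjusted p = 8.07e-05). By reads, with 38 to 137 per library, it was 1.30. HGD, which opens the ring of homogentisate in the next step, is at a far higher level. It was at 58.5, 60.3 and 66.7 FPKM in sh-NC and at 39.1, 38.1 and 37.4 FPKM in sh-CLGN. The sh-CLGN libraries lay close together and below the control range, with a log2 fold change of -0.68 (SE 0.058, limma adjusted p = 3.64e-05). FAH, the last enzyme, which releases fumarate, went from 5.78 ± 0.638 to 4.48 ± 0.0602 FPKM (mean ± SD, n = 3). This gave a log2 fold change of -0.30 (SE 0.078, limma adjusted p = 0.00934), but FAH was not called after a correction for GC content or with scaling by read totals. TAT, the aminotransferase of the first step, stood at 0.981, 0.950 and 1.03 FPKM in sh-NC and at 1.14, 1.32 and 0.859 FPKM in sh-CLGN, so the groups overlapped. The neighbouring steps of HPD and HGD thus changed in opposite directions.

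Tryptophan is opened by TDO2 and passed along the kynurenine pathway towards NAD. Of the 5 genes, 3 passed the filter, with TDO2 higher, HAAO lower and AFMID not past the test. TDO2, the tryptophan dioxygenase of the first step, was at 0.531, 0.442 and 0.638 FPKM in sh-NC and at 2.09, 1.95 and 1.59 FPKM in sh-CLGN. The groups were far apart, at a ratio of mean levels of 3.49, and the log2 fold change was 0.90 (SE 0.105, limma adjusted p = 0.000167). By reads, with 34 to 187 per library, it was 1.80. AFMID, which takes the formyl group off formylkynurenine, showed no separation, at 11.3 ± 0.723 and 11.7 ± 0.661 FPKM (log2 fold change 0.04, SE 0.066). It was called higher after GC correction (0.19), with quantile normalization (0.19) and with read totals (0.22). KYNU, kynureninase, had 51, 57 and 42 reads in sh-NC against 276, 261 and 255 in sh-CLGN. In FPKM these were 0.208, 0.222 and 0.154 against 0.924, 0.905 and 0.897. The ratio of mean levels was 4.67, the widest of the 38 genes. In the fit on reads its log2 fold change was 2.24 (SE 0.165, voom adjusted p = 2.23e-10), and leaving out 1 library at a time gave 2.07 to 2.34. KMO, which adds a hydroxyl group to kynurenine, had 6, 11 and 10 reads in sh-NC against 12, 14 and 19 in sh-CLGN. The groups did not overlap in reads but did so in FPKM, and the fit on reads gave 0.54 (SE 0.389, voom adjusted p = 0.226). HAAO, which acts on 3-hydroxyanthranilate further along the path, was at 9.94, 8.39 and 7.49 FPKM in sh-NC and at 6.70, 6.65 and 7.29 FPKM in sh-CLGN. The gap between the groups was narrow, with a log2 fold change of -0.28 (SE 0.094, limma adjusted p = 0.0302), and after GC correction it was -0.07. HAAO was not called without sh-NC replicate 1 or 2 or without sh-CLGN replicate 1 or 2.

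**Figure D2:**
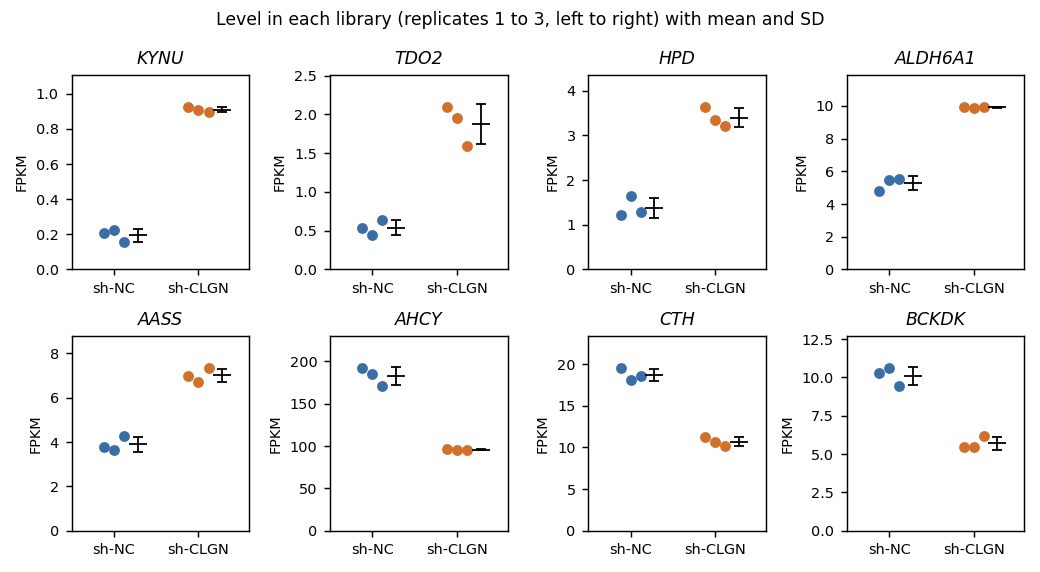
FPKM of 8 genes in each library, replicates 1 to 3 from left to right, with mean and SD beside the points; each panel starts at 0. KYNU, TDO2, HPD, ALDH6A1 and AASS lie higher in all 3 sh-CLGN libraries (orange) than in any sh-NC library (blue), and AHCY, CTH and BCKDK lie lower.

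Leucine, isoleucine and valine share their first steps, transamination by a BCAT enzyme and decarboxylation by the branched-chain keto acid dehydrogenase complex. Of 8 genes tested, BCAT1 and DBT were higher, and BCAT2, BCKDHB, BCKDK, IVD and MCCC2 were lower. MCCC1 did not pass. BCAT1, the aminotransferase of the cytosol, was at 13.1, 12.7 and 15.4 FPKM in sh-NC and at 16.7, 17.4 and 15.7 FPKM in sh-CLGN. The lowest sh-CLGN library stood just above the highest control, and the log2 fold change was 0.26 (SE 0.079, limma adjusted p = 0.0196), or 0.07 after GC correction, where it was not called. It also missed the threshold without sh-NC replicate 1 or 2 or sh-CLGN replicate 1 or 2. BCAT2, the mitochondrial enzyme, was at 12.2, 11.8 and 9.44 FPKM in sh-NC and at 7.85, 8.16 and 8.57 FPKM in sh-CLGN, a log2 fold change of -0.39 (SE 0.092, limma adjusted p = 0.00598). It was -0.18 after GC correction, still called, and -0.22 with read totals, not called. The level of BCAT1 over that of BCAT2 was 1.07, 1.08 and 1.63 in sh-NC against 2.12, 2.13 and 1.83 in sh-CLGN, so BCAT1 was the higher of the pair in every library.

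In the main test the subunits of the dehydrogenase complex did not move together. DBT, the acyltransferase core, was at 2.30, 2.07 and 2.50 FPKM in sh-NC and at 3.97, 4.14 and 3.94 FPKM in sh-CLGN. The groups were well separated, with a log2 fold change of 0.61 (SE 0.072, limma adjusted p = 0.000181). BCKDHB, the beta subunit of the decarboxylase, went from 7.41 ± 0.731 to 6.01 ± 0.701 FPKM (SD, n = 3), a log2 fold change of -0.26 (SE 0.095, limma adjusted p = 0.0391). It was not called without sh-NC replicate 2 or 3 or without sh-CLGN replicate 2 or 3. BCKDHB was also not called without the filter, with a replicate block, or with quantile normalization (-0.18), TPM (-0.17) or read totals (-0.09). After GC correction it was -0.41 and called. BCKDHA, the alpha subunit, had 3, 2 and 1 reads in sh-NC against 5, 8 and 2 in sh-CLGN. Of its exonic bases 63.8% also belong to a gene on the same strand, AC011462.1, which had 0 reads in every library, so its level may not be measured here. BCKDK, the kinase that inhibits the complex, was at 10.3, 10.6 and 9.44 FPKM in sh-NC and at 5.45, 5.45 and 6.19 FPKM in sh-CLGN. All sh-CLGN libraries lay below the controls, at a ratio of mean levels of 0.564, with a log2 fold change of -0.73 (SE 0.069, limma adjusted p = 5.76e-05).

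The next steps of leucine breakdown were lower or did not pass. IVD, isovaleryl-CoA dehydrogenase, was at 13.4, 14.3 and 11.7 FPKM in sh-NC and at 9.33, 9.29 and 9.04 FPKM in sh-CLGN, a log2 fold change of -0.47 (SE 0.073, limma adjusted p = 0.000778). MCCC1 and MCCC2 are the 2 subunits of methylcrotonyl-CoA carboxylase. MCCC2 went from 24.1 ± 0.505 to 21.8 ± 0.590 FPKM, with a log2 fold change of -0.14 (SE 0.046, limma adjusted p = 0.0286). MCCC1 stood at 8.30 ± 0.248 and 7.64 ± 0.155 FPKM, with a log2 fold change of -0.11 (limma adjusted p = 0.103). MCCC2 was not called without sh-NC replicate 2 or without any 1 of the sh-CLGN libraries. For both genes the groups did not overlap, and both values changed sign under quantile normalization and scaling by read totals.

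Valine and the propionyl-CoA it yields are handled by ALDH6A1 and the carboxylase and epimerase that follow. Of these 4 genes ALDH6A1 was higher, PCCB was lower, and PCCA and MCEE did not pass. ALDH6A1, methylmalonate semialdehyde dehydrogenase, was at 4.83, 5.50 and 5.54 FPKM in sh-NC and at 9.94, 9.89 and 9.92 FPKM in sh-CLGN. The sh-CLGN libraries were nearly equal to each other and lay far above the controls, at a ratio of mean levels of 1.87, with a log2 fold change of 0.80 (SE 0.062, limma adjusted p = 2.32e-05). PCCB, the beta subunit of propionyl-CoA carboxylase, was at 9.84, 11.3 and 10.3 FPKM in sh-NC and at 7.53, 7.60 and 7.41 FPKM in sh-CLGN, a log2 fold change of -0.43 (SE 0.061, limma adjusted p = 0.000455). Its partner PCCA, the alpha subunit, stood at 2.38 ± 0.0999 and 2.41 ± 0.165 FPKM (log2 fold change 0.01, SE 0.073). MCEE, the methylmalonyl-CoA epimerase, stood at 6.56 ± 0.868 and 7.49 ± 0.303 FPKM, with overlapping groups (limma adjusted p = 0.121). It was called higher with quantile normalization (0.27), TPM (0.31) and read totals (0.34).

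**Figure D3:**
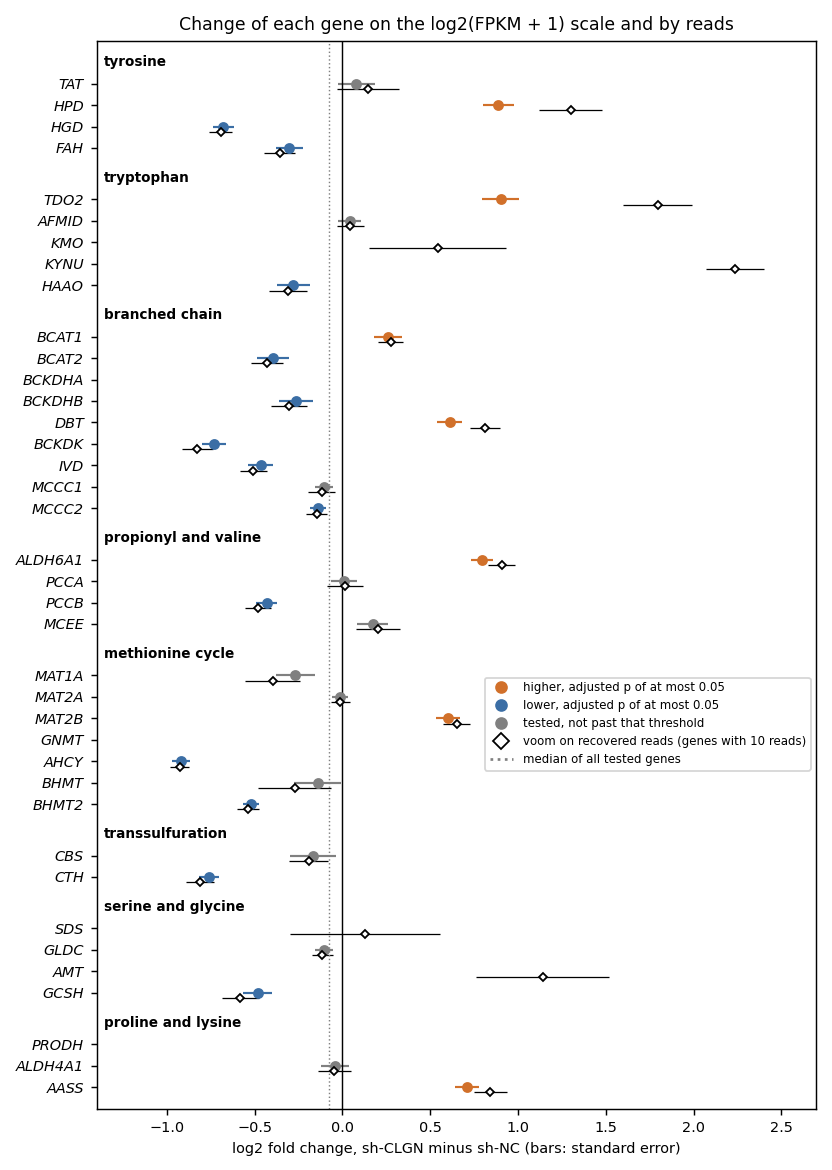
Log2 fold change, sh-CLGN minus sh-NC, of each gene, with its standard error. Filled circles are limma on log2(FPKM + 1), orange for higher, blue for lower and grey for not past an adjusted p of 0.05, open diamonds are the fit on reads, and the dotted line is the median of all tested genes at -0.08; KYNU at 2.24 and TDO2 at 1.80 are the farthest to the right by reads, and AHCY at -0.92 the farthest to the left.

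In the methionine cycle, 6 of 7 genes were tested. MAT2B was higher, AHCY and BHMT2 were lower, and MAT1A, MAT2A and BHMT did not pass. AHCY (ENSG00000101444; chromosome 20, 34280268 to 34311802, minus strand) splits S-adenosylhomocysteine, a product that inhibits methyltransferases. It was at 192, 185 and 171 FPKM in sh-NC and at 96.1, 95.8 and 95.4 FPKM in sh-CLGN, the highest level of the 38 genes in either group. The ratio of mean levels was 0.525, and the log2 fold change of -0.92 (SE 0.053, limma adjusted p = 6.30e-06) was the largest fall among them in this fit. After GC correction that of CTH was larger. The AHCY value rests on 5999 to 10504 reads per library. BHMT2, which methylates homocysteine with S-methylmethionine, was at 33.7, 34.2 and 33.2 FPKM in sh-NC and at 23.4, 22.6 and 23.5 FPKM in sh-CLGN, a log2 fold change of -0.52 (SE 0.044, limma adjusted p = 3.29e-05). Its neighbour and relative BHMT, which uses betaine, stood at 1.39 ± 0.260 and 1.17 ± 0.303 FPKM, with overlapping groups. BHMT is usually abundant in adult liver, and here BHMT2 was at the higher level in every library.

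The first step of the cycle is taken by methionine adenosyltransferase, encoded by MAT1A in adult hepatocytes and by MAT2A in most other and in dividing cells, with MAT2B as the regulatory subunit of the latter. MAT2A was at 64.5, 68.4 and 67.9 FPKM in sh-NC and at 65.3, 66.1 and 67.7 FPKM in sh-CLGN. The groups overlapped, with a log2 fold change of -0.01 (SE 0.045), though with quantile normalization it was 0.28 and with scaling by read totals 0.18, both called. MAT2B was at 9.35, 8.60 and 10.2 FPKM in sh-NC and at 14.5, 15.4 and 14.2 FPKM in sh-CLGN. Its groups were well apart, with a log2 fold change of 0.60 (SE 0.069, limma adjusted p = 0.000149), and the level of MAT2A over that of MAT2B was 6.90, 7.96 and 6.66 in sh-NC against 4.49, 4.29 and 4.76 in sh-CLGN. MAT1A was at 2.41, 2.54 and 2.0 FPKM in sh-NC and at 2.14, 1.57 and 1.56 FPKM in sh-CLGN. Its groups overlapped by 1 library each, and the log2 fold change of -0.27 (SE 0.110, limma adjusted p = 0.0611) missed the threshold, while the fit on reads gave -0.40 (voom adjusted p = 0.0321). It was called without sh-NC replicate 3 or sh-CLGN replicate 1. MAT2A stood 26.8 to 34.0 times above MAT1A in sh-NC and 30.5 to 43.4 times above it in sh-CLGN. GNMT, a methyltransferase that uses surplus S-adenosylmethionine and is abundant in normal liver, had 2, 0 and 3 reads in sh-NC against 2, 4 and 1 in sh-CLGN, so no difference was detectable at this depth.

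Transsulfuration takes homocysteine to cysteine by CBS and then CTH. CTH, cystathionine gamma-lyase, was at 19.5, 18.1 and 18.6 FPKM in sh-NC and at 11.2, 10.7 and 10.1 FPKM in sh-CLGN. All sh-CLGN libraries lay far below the controls, at a ratio of mean levels of 0.570, with a log2 fold change of -0.76 (SE 0.056, limma adjusted p = 1.87e-05). CBS, cystathionine beta-synthase, was at 7.01, 8.65 and 7.73 FPKM in sh-NC and at 8.32, 5.43 and 6.95 FPKM in sh-CLGN. The groups overlapped (log2 fold change -0.17, SE 0.134, limma adjusted p = 0.299), and the spread was wider than that of CTH.

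CBS has a near-identical copy, CBSL, on the same chromosome, and reads can be split between them. CBSL had 162, 33 and 16 reads in sh-NC against 29, 146 and 20 in sh-CLGN, so that it took 19.6% of their sum in sh-NC replicate 1 and 19.5% in sh-CLGN replicate 2, and 1.93% to 3.71% in the other libraries. The libraries high in CBSL are 1 in each group, and each is the one with the lowest CBS of its group. The sum of both in CPM (reads scaled by the library size behind FPKM) was 57.9 ± 3.89 in sh-NC against 50.8 ± 6.54 in sh-CLGN (SD, n = 3), and the groups still overlapped. The level of CTH over that of CBS was 2.78, 2.09 and 2.40 in sh-NC against 1.35, 1.96 and 1.46 in sh-CLGN. This ratio leaves out the reads given to CBSL. Its highest value in each group belongs to the library in which CBSL took the largest share.

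**Figure D4:**
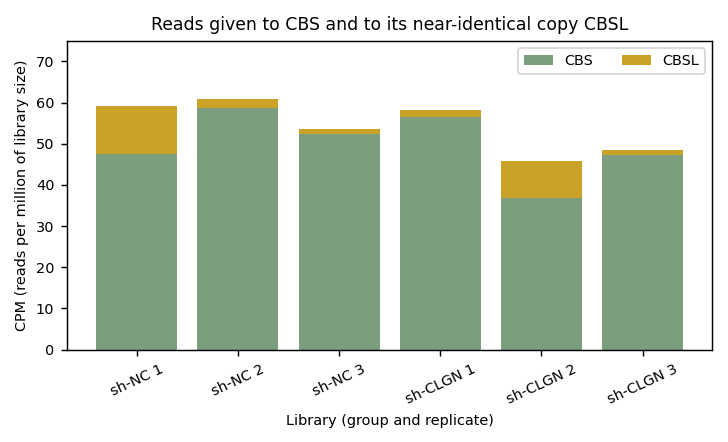
Reads, scaled by library size (CPM), given to CBS (green) and to its near-identical copy CBSL (yellow) in each library, stacked. CBSL took 19.6% of the sum in sh-NC replicate 1 and 19.5% in sh-CLGN replicate 2, and the summed height ran from 45.8 to 61.0.

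Serine and glycine are broken down by SDS, a dehydratase, and by the glycine cleavage system of GLDC, AMT and GCSH. GCSH, the carrier protein of the system, was at 5.58, 6.13 and 7.0 FPKM in sh-NC and at 4.26, 4.01 and 4.19 FPKM in sh-CLGN, a log2 fold change of -0.48 (SE 0.080, limma adjusted p = 0.00103). GCSH has pseudogene copies and shares 12.02% of its exonic bases with other genes on its strand, so its reads may be split. GLDC, the decarboxylase, stood at 14.9 ± 0.610 and 13.7 ± 0.357 FPKM. Its groups did not overlap but it missed the threshold (log2 fold change -0.11, limma adjusted p = 0.102), which it passed only without sh-NC replicate 3 among the libraries left out. AMT, the aminomethyltransferase, had 9, 8 and 6 reads in sh-NC against 21, 23 and 15 in sh-CLGN. It entered the fit on reads through sh-CLGN, the group in which it was high. The groups were separate, and its log2 fold change was 1.14 (SE 0.380, voom adjusted p = 0.0124), but without sh-NC replicate 3 the adjusted p was 0.0518. A further limit is that 63.1% of its exonic bases also belong to a gene on its strand, AC104452.1, with 0 to 2 reads per library. SDS had 13, 5 and 10 reads in sh-NC against 10, 9 and 14 in sh-CLGN, with no separation.

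Proline and lysine are the last group, with 2 of 3 genes tested. AASS, the enzyme that joins lysine to 2-oxoglutarate and splits the product, was at 3.78, 3.66 and 4.28 FPKM in sh-NC and at 6.96, 6.72 and 7.33 FPKM in sh-CLGN. The groups were far apart, at a ratio of mean levels of 1.79, with a log2 fold change of 0.71 (SE 0.069, limma adjusted p = 6.69e-05). ALDH4A1, which finishes proline breakdown, stood at 7.92 ± 0.790 and 7.66 ± 0.535 FPKM. Its groups overlapped (log2 fold change -0.04, SE 0.080), and after GC correction the value was 0.17 and called. PRODH, the first enzyme of proline breakdown, had 10, 4 and 2 reads in sh-NC against 1, 5 and 22 in sh-CLGN. The spread within sh-CLGN was wider than any gap between the groups.

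The other enzymes of these pathways were examined as a second list of 67 genes, also chosen with earlier results of these data known. Of these, 62 passed the filter. In sh-CLGN 9 of them were higher and 37 lower (74.2% called, against 65.8%, and 59.7% lower, against 39.0% of all genes tested), with a median log2 fold change of -0.25. The number called depended on the scaling. It was 46 of the 62 in the main test and 37 of the 62 with quantile normalization, where 30.2% of all genes tested were higher and 32.5% lower. With read totals it was 39 of the 62, where 37.9% of all genes tested were higher and 26.2% lower. Under either scaling the share called in the list was not above that of all genes. The split of directions in the list was not computed under these scalings. The counts by direction in this paragraph are thus of the main test alone. In the main test both thresholds were passed by 5 (8.06%, against 6.28%), all lower, namely HAL, GOT1, MTRR, ETHE1 and ACMSD. ACMSD reached 1 FPKM only in sh-NC, so it entered the test through the group in which it was high. In the list around methionine and one-carbon units 10 of 14 were lower and the other 4 did not pass. For cysteine and sulfur 6 of 8 were lower and 1 was higher, and for proline, lysine and histidine 8 of 10 were lower and the other 2 did not pass. The counts higher and lower were 2 and 2 of 5 for phenylalanine and tyrosine, 1 and 3 of 5 for tryptophan and NAD, 3 and 5 of 13 for branched chains and propionyl-CoA, and 2 and 3 of 7 for serine, glycine and threonine.

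MTRR, which keeps methionine synthase active, was at 11.5, 11.1 and 12.1 FPKM in sh-NC and at 4.35, 4.59 and 4.38 FPKM in sh-CLGN (log2 fold change -1.21, SE 0.056, limma adjusted p = 2.74e-06). It acts beside BHMT2 in the return of homocysteine to methionine, and both were lower. GOT1, the cytosolic aspartate aminotransferase, went from 50.2 ± 1.34 to 20.1 ± 0.809 FPKM (log2 fold change -1.28). ETHE1, which takes part in the oxidation of sulfide in mitochondria, went from 9.11 ± 0.977 to 3.54 ± 0.128 FPKM (log2 fold change -1.15). HAL, the ammonia-lyase that opens histidine breakdown, went from 7.31 ± 1.05 to 2.27 ± 0.156 FPKM (log2 fold change -1.34). ACMSD, which draws kynurenine carbon away from NAD, went from 2.93 ± 0.365 to 0.770 ± 0.0940 FPKM (log2 fold change -1.15). PYCR1, an enzyme of proline synthesis, went from 65.3 ± 4.75 to 33.7 ± 0.622 FPKM (log2 fold change -0.93). The higher genes with the smallest adjusted p were AGXT, the alanine-glyoxylate aminotransferase, at 3.27 ± 0.547 and 6.57 ± 0.291 FPKM, CSAD, of taurine synthesis, at 2.91 ± 0.548 and 5.42 ± 0.107 FPKM, and MMUT, methylmalonyl-CoA mutase, at 6.92 ± 0.308 and 8.94 ± 0.114 FPKM. Their log2 fold changes were 0.83, 0.72 and 0.33, and that of MMUT was 0.06 after GC correction.

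The 38 genes differ widely in base composition, from 37.6% to 61.9% GC over their transcripts. Median GC was 40.5% in the 7 higher genes, 49.2% in the 13 lower genes and 48.9% in all genes tested. KYNU, at 37.6%, and TDO2, at 37.7%, are the lowest of the 38, and HPD, at 57.1%, is a higher gene with high GC. After removal of the GC trend in each library the log2 fold change was 1.08 for HPD, 0.58 for TDO2, 0.35 for DBT, 0.33 for MAT2B, 0.78 for ALDH6A1, 0.60 for AASS, -0.74 for AHCY and -0.82 for CTH, all still called. The corrected log2 fold change was -0.67 for HGD, -0.51 for BCKDK, -0.30 for IVD, -0.36 for PCCB, -0.41 for BCKDHB, -0.19 for MCCC2, -0.47 for BHMT2 and -0.69 for GCSH, and these were also still called. KYNU was not in that fit, so base composition was not tested for it.

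**Figure D5:**
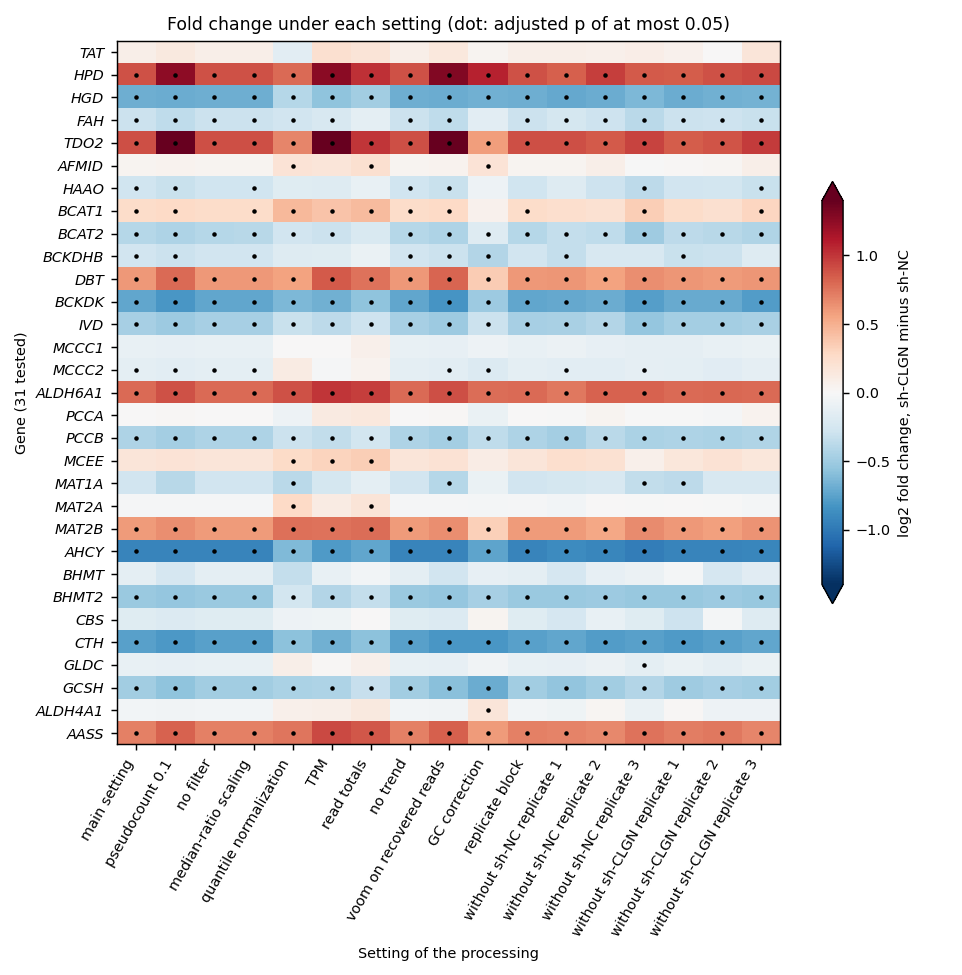
Log2 fold change, sh-CLGN minus sh-NC, of the 31 tested genes under each setting of the processing, red for higher and blue for lower, with a dot where the adjusted p was at most 0.05. The rows of AHCY, CTH, BCKDK and HGD are blue with a dot throughout and those of HPD, TDO2, ALDH6A1 and AASS red with a dot throughout, while MCCC1, MCCC2, GLDC and MAT2A change colour with the scaling. TDO2 entered the test through sh-CLGN, the group in which it was high.

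The letters of the CLGN hairpin target that pair with the start of its antisense strand, TACCACA and ATACCAC, were searched in annotated 3′ UTRs, since they are shared by other transcripts. They occurred in 7 of the 38 genes. Of the 31 tested genes 6 held them, 2 of them higher (BCAT1 and DBT), 3 lower (HGD, IVD and PCCB) and 1 not called (CBS), and they occurred in 17.97% of 10909 tested genes with such an annotation. KYNU, which rose, was the seventh. One match of each tested gene is shown from GRCh38 with the flanking letters, on the strand of the transcript and with the heptamer in capitals. The heptamers lie at chr3:120628445-120628451 (HGD, minus strand), chr15:40435708-40435714 (IVD, plus strand), chr3:136336225-136336231 (PCCB, plus strand), chr1:100191023-100191029 (DBT, minus strand), chr12:24813304-24813310 (BCAT1, minus strand) and chr21:43055744-43055750 (CBS, minus strand).
HGD: tggatgagaacTACCACAagtgctgggag
IVD: gcctcacccctATACCACagctctgcacc
PCCB: aataggatgacTACCACAagcctgatttt
DBT: actccatggctTACCACAggaatatttat
BCAT1: ttttttatcatTACCACAaacccctttta
CBS: caagacctaaaATACCACcagctggccct

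Genes with these letters were found among the higher, the lower and the uncalled genes. Whether the hairpin acted on any of these transcripts was not tested, and a match of letters alone does not show it.

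The summed levels of markers of other cell types moved with the groups. The summed level of 10 fibroblast markers was 7.17 to 8.51 FPKM in sh-NC and 48.5 to 49.9 FPKM in sh-CLGN, where the 5 markers tested were all higher and FAP and POSTN had 0 reads in every library. The sum of 5 endothelial markers was 3.36 to 3.67 FPKM and 2.38 to 2.65 FPKM, with KDR at 0 reads. It was 69.9 to 77.7 FPKM and 61.2 to 68.4 FPKM for 6 leukocyte markers, and 151 to 158 FPKM and 108 to 114 FPKM for 4 cholangiocyte markers. Only 1 endothelial marker and 2 leukocyte markers passed the filter, all lower. Among 3 cholangiocyte markers tested, 1 was higher and 2 were lower, against the direction of the sum for 1 of them. Of the 12 hepatocyte markers 3 were higher and 8 lower. In every library 4 of the fibroblast, 4 of the endothelial and 4 of the leukocyte markers stayed under 1 FPKM. All 6 libraries come from the cell line Hep-G2, so these sums are levels of a few genes and give no number of cells of a type. The part of these shifts in the results above was not tested. The exons of 15 of the 38 genes overlap a gene on the opposite strand. At 10% of exonic bases or more these were KMO (28.4%), PCCB (22.1%), MAT2A (12.4%) and ALDH6A1 (10.03%), and HPD was at 5.04%. Also 41.1% of the bases of ALDH4A1 belong to a gene on its own strand. Whether the counting used strand is not given in the sources used here, so their values are uncertain.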

How the data were processed

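RNA was sequenced from 3 sh-NC and 3 sh-CLGN libraries of Hep-G2 cells, made with a NEBNext Ultra kit per the labels. The authors deposited 1 table of FPKM per gene and library, and the submitters' processing notes name HISAT2 2.0.5, featureCounts and GRCh38. Their scaling is built into these values: the library size behind FPKM was 0.933 to 0.953 of the read total in sh-NC against 1.07 to 1.08 in sh-CLGN. All 58735 gene positions equalled GENCODE 29. FPKM times gene length gave whole reads for 100% of values (tolerance 0.01 of a read), and 1 read on 1 kb was worth 0.0589 to 0.0717 FPKM.

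The main test was limma 3.58.1 (R 4.3.3) with eBayes and a trend on log2(FPKM + 1), two-sided, for genes that reached 1 FPKM in 3 or more libraries, with Benjamini-Hochberg adjustment over 13074 genes. Alternatives were a pseudocount of 0.1, no filter, median-ratio, quantile, TPM and read-total scaling, no trend, voom, GC correction (lowess span 0.3), a replicate block, each library left out and, chosen after the data were seen, voom on genes that reached 10 reads in 3 or more libraries. The members and the lists were chosen with earlier results of these data known. All 38 members are named, and of the related genes those past both thresholds (adjusted p of at most 0.05, absolute log2 fold change of at least 1) and the 3 with the smallest adjusted p in each direction. MMUT was matched by its identifier. The procedure was tested on simulated data, in which the changes were larger than that of any of the 38 members in the main test. That simulation thus does not speak to changes of the size reported here. Figures and sequences used Python 3.11.15 with pandas 2.3.3, numpy 2.4.6 and matplotlib 3.10.9.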

Additional observations from a re-analysis of the deposited data

How the results depend on the processing

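Under the 18 alternatives, 14 of the 20 called genes were called in the same direction throughout: HPD, TDO2, DBT, ALDH6A1, MAT2B and AASS higher, and HGD, BCKDK, IVD, PCCB, AHCY, BHMT2, CTH and GCSH lower. BCAT1, BCAT2, BCKDHB, FAH, HAAO and MCCC2 were not. TDO2 reached 1 FPKM only in sh-CLGN, so its entry into the test depended on the group in which it was high. The share of all called genes that held in this way was not computed. Of 586 values of single genes, 499 kept direction and call, 40 lost and 13 gained the call, and 34 changed sign. The number of genes called was 20, and 16 to 21 with a library left out. The number lower was 13, and 8 with read totals. The number past both thresholds was 0, and 2 with a pseudocount of 0.1, TPM, read totals or voom (HPD and TDO2), 1 with GC correction with or without the block (HPD), and 4 with voom on all genes of 10 or more reads (HPD, TDO2, KYNU and AMT, of which AMT reached 10 reads only in sh-CLGN). The shares of all genes past both thresholds under these alternatives were not computed. The median of all genes moved by 0.11 with TPM, 0.16 with read totals and 0.06 with quantile normalization. Same-numbered replicates did not deviate together (correlations -0.0184, -0.046 and -0.146), so the numbers do not pair the samples; a replicate block left 17 calls, 7 higher and 10 lower, without HAAO, BCKDHB and MCCC2. Quantile normalization turned TAT to -0.14, MCCC1 to 0.0068, MCCC2 to 0.11, PCCA to -0.070, MAT2A to 0.28, GLDC to 0.083 and ALDH4A1 to 0.067. TPM turned MCCC1 to 0.0073, MAT2A to 0.12, GLDC to 0.012 and ALDH4A1 to 0.079. Read totals turned MCCC1 to 0.067, MCCC2 to 0.048, MAT2A to 0.18, CBS to 0.0040, GLDC to 0.075 and ALDH4A1 to 0.13. GC correction, with or without the block, turned PCCA to -0.089, CBS to 0.037 and ALDH4A1 to 0.17. With a library left out, AFMID ran from -0.0030 to 0.085, PCCA from -0.018 to 0.049, MAT2A from -0.037 to 0.0047, SDS from -0.23 to 0.43 and ALDH4A1 from -0.093 to 0.029. The cause of these changes was not tested. The filter on reads left out BCKDHA, GNMT and PRODH, and 3 replicates a group limit the precision of small changes.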
